A study of Mus musculus with 24 samples.

Results

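The genes of cholesterol and fatty acid synthesis were described in mouse retinal organoids (MROs) over 10 days of culture. The group was made up of 35 named genes, each matched by symbol to 1 Ensembl mouse identifier, out of 126602 features counted and 46603 annotated genes. All 35 were found and all 35 passed the filter on low counts (a mean of at least 10 normalized counts over the libraries). The rule uses gene names alone and no measured level, but the names were chosen with earlier results of these data known. Shares of members set beside those of annotated genes below are therefore not an unbiased comparison. MROs are pieces of retina grown in suspension from mouse embryonic stem cells, here of the E14Tg2a line (wildtype), by cutting each young organoid into pieces and growing the pieces on. Whole single organoids were sequenced at day 20 (D20), D22, D25 and D30, 6 at each timepoint, from 1 experiment. All 24 carried the genotype label Control and received only water as solvent, and all were grown in medium with fetal bovine serum and received an early pulse of the retinoid EC23. There was no treated or mutant group, so every comparison below is between ages. Pieces of 1 parent organoid may be among the replicates, which the labels do not show, so the p-values measure the spread among these organoids of 1 experiment.

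Cholesterol is built from acetyl-CoA through mevalonate, isoprenoid units and squalene, which is folded to lanosterol and then trimmed to cholesterol. The transcription factors SREBP-2 and SREBP-1 (genes Srebf2 and Srebf1) switch on sterol and fatty acid genes when membranes are low in sterol, and INSIG proteins hold them back in the endoplasmic reticulum when sterol is plentiful. Fatty acids are made by acetyl-CoA carboxylase and fatty acid synthase, then lengthened by ELOVL enzymes and given double bonds by SCD and FADS enzymes. In the retina these pathways supply the stacked discs of photoreceptor outer segments, whose membranes are exceptionally rich in docosahexaenoic acid and in very long chain fatty acids that need ELOVL4. Müller glia, the radial glia of the retina, are known as a main site of sterol synthesis and lipoprotein release in neural retina.

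Levels are given as normalized CPM, that is, the reads of a gene relative to all counted reads of its library, after TMM scaling of the libraries. Between 13634846 and 19477108 reads fell on features in each organoid, so that 3 reads were worth 0.154 to 0.220 CPM (counting error only). The lowest count of any member in any organoid was 10, for Elovl7. Differences between timepoints are fitted log2 fold changes from edgeR's quasi-likelihood test, with Benjamini-Hochberg adjustment over all 46949 features tested. The test gives no standard error, so each SE was derived as the absolute log2 fold change over the square root of its F statistic. A gene was called at an adjusted p below 0.01. The organoids were whole tissue: marker sums of photoreceptors (9 genes) went from 1072–1678 CPM at D20 to 3672–6378 at D30, and those of Müller glia (6 genes) from 446–605 to 809–2595. Sums of 7 progenitor and cell cycle genes went from 1075–1548 to 295–502. Sums of 8 oligodendrocyte lineage genes went from 59.5–80.3 to 51.6–274 CPM with Mog and Mag at or below 1.14, those of 5 fibroblast genes from 8.04–21.3 to 21.7–130, and those of 5 pigment epithelium genes from 126–242 to 33.4–2716. At D30 a single pigment epithelium gene reached 2627 CPM in an organoid, so these sums can rest mostly on 1 gene. From D20 to D30 Ttr of that list was called higher, Dct was called lower and the other 3 were not called. Sums of 5 endothelial genes went from 258–343 to 126–209 CPM. Nearly all of that was Kdr (mean 280 CPM at D20 and 169 at D30), while Pecam1, Cdh5, Cldn5 and Tek were at or below 4.05 CPM in any organoid of these days, and from D20 to D30 Pecam1 was called higher and Kdr and Cldn5 lower. The microglia list (6 genes) summed to at most 1.31 CPM and the adipocyte list (3 genes) to at most 0.36 in any organoid. In such bulk samples, fewer cells of a type and less RNA per cell cannot be told apart, and the part of changing cell makeup in the values below was not tested.

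Over the whole course members were called in both directions, also within roles. From D20 to D30, 15 of the 35 members were called, 11 higher and 4 lower, a share of 42.9% that lay near the 41.8% of annotated genes called in the same comparison (26.8% of all features). The 3 genes for export, uptake and activation of lipid (Abca1, Acsl6, Lpl) rose. Of the fatty acid enzymes Acaca, Scd1, Elovl4, Elovl7 and Fads2 rose and Elovl6 fell. Of the sterol regulators Srebf1 rose and Srebf2 and Insig1 fell, and of the 17 sterol synthesis genes Pmvk and Ebp rose and Lss fell. The median log2 fold change of the members was 0.16, beside 0.10 for annotated genes tested. In the joint test of all 4 timepoints 17 members were called, beside 43.9% of annotated genes (27.2% of all features), and the other 18 passed in no comparison.

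**Figure D1:**
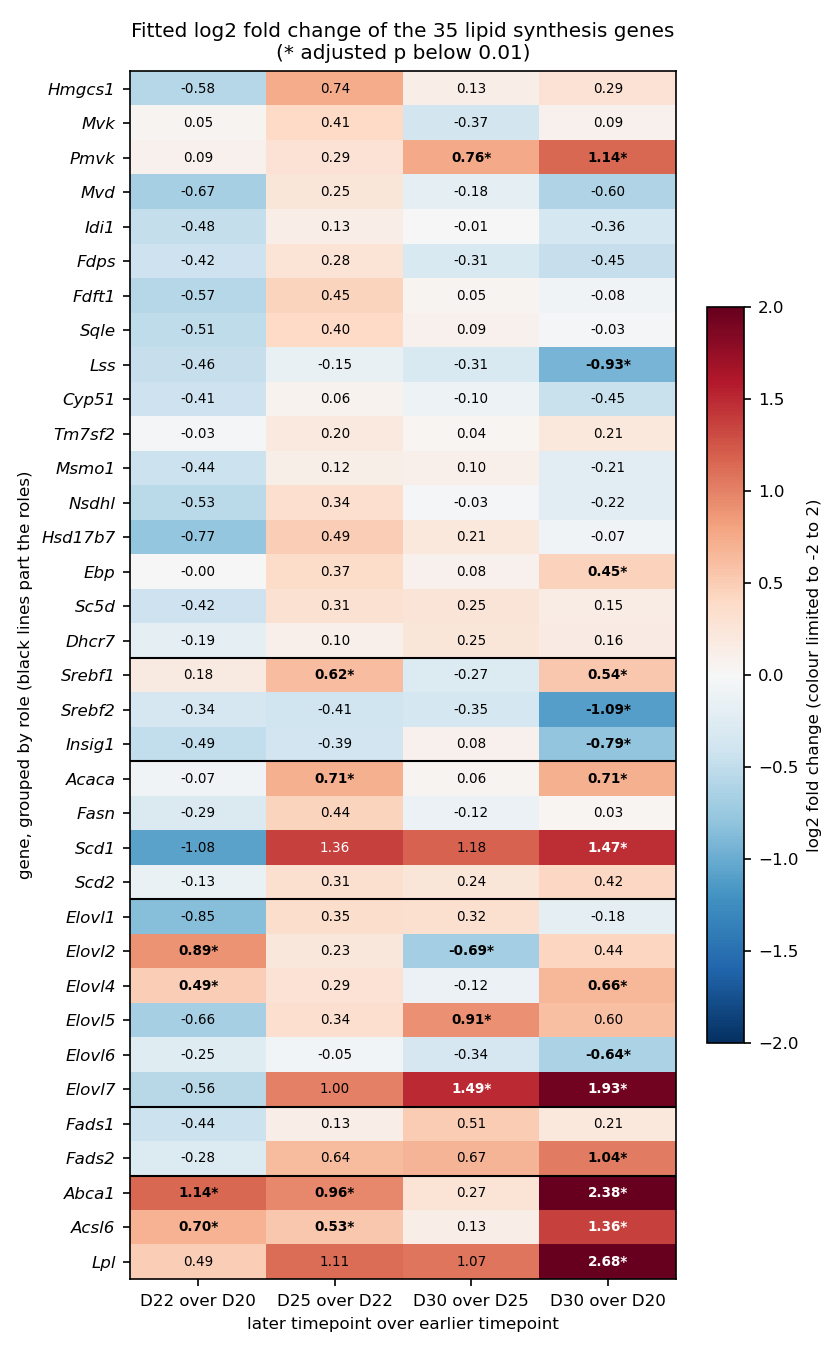
Fitted log2 fold change (colour and printed value) of the 35 genes, in rows by role, for the 3 steps and for D30 over D20, in columns; an asterisk marks an adjusted p below 0.01. Sterol synthesis genes are mostly blue in the first column and red in the second with no asterisk in either, while Abca1 and Acsl6 carry asterisks in both of these steps.

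Single steps gave fewer calls than the whole course. From D20 to D22, Elovl2, Elovl4, Abca1 and Acsl6 rose, which is 11.4% of members beside 3.32% of annotated genes (1.9% of all features), 2.56% in that direction. From D22 to D25, Srebf1, Acaca, Abca1 and Acsl6 rose, again 11.4%, beside 10.2% of annotated genes (5.28% of all features), 7.33% higher and 2.92% lower. From D25 to D30, Pmvk, Elovl5 and Elovl7 rose and Elovl2 fell, beside 7.38% of annotated genes (3.51% of all features), 4.55% higher and 2.83% lower. Counted by organoids alone, the 6 values of 1 day lay wholly above those of the other in 4 members from D20 to D22 (2.36% of annotated genes), in 3 from D22 to D25 (7.11%), in 1 from D25 to D30 (4.46%) and in 9 from D20 to D30 (17%). They lay wholly below in 8 members from D20 to D22 (2.38%), in 1 from D25 to D30 (3.06%) and in 4 from D20 to D30 (12.7%). From D22 to D25 they did so in 0 members (share of annotated genes not reported here).

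Per kb of annotated exon, the highest mean levels at D20 were those of Scd2 (117 CPM per kb), Hmgcs1 (92.2) and Elovl4 (83.4), and at D30 the same 3 genes led, with 157, 113 and 132 CPM per kb. The lowest at D30 were Elovl1 (1.33), Elovl7 (1.66) and Lpl (1.82).

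The sterol synthesis genes ran lower at D22 than at D20 in nearly all members, by an amount that did not reach the threshold for any of them. Hmgcs1, which makes HMG-CoA at the entry of the mevalonate pathway, was read at 354, 415 and 543 CPM in the lowest, median and highest organoid at D20 and at 243, 287 and 338 at D22, so the 6 organoids of each day did not overlap. Its fitted log2 fold change was -0.58 (SE 0.27, edgeR adjusted p = 0.248). Fdft1, the squalene synthase, lay at 80.7, 91.9 and 102 CPM at D20 and at 46.3, 63.4 and 74.1 at D22 (log2 fold change -0.57, SE 0.18, adjusted p = 0.0559). Sqle, the squalene epoxidase, lay at 49.0, 52.0 and 63.7 CPM at D20 and at 27.1, 38.3 and 44.3 at D22 (-0.51, SE 0.17, adjusted p = 0.0782). In each of these genes every D22 organoid lay below every D20 organoid. The fitted value was negative for 15 of the 17 sterol synthesis genes, with a median of -0.44 beside -0.06 for annotated genes. None was called by edgeR or by DESeq2, and 11 of the 17 had an unadjusted edgeR p below 0.05. Without overlap between the days, 8 of the 35 members were lower at D22 (Hmgcs1, Fdft1, Sqle, Lss, Nsdhl, Sc5d, Elovl5 and Fads2), where 2.38% of annotated genes were. In a fit restricted to the first 2 timepoints, so that the wider spread of the later days did not enter, Hmgcs1 (adjusted p = 0.000803), Fdft1 (0.00264), Sqle (0.00856), Elovl5 (0.000833) and Scd1 (0.000901) were called lower, and 3.89% of annotated genes were called.

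Most other sterol synthesis genes also ran lower at D22, by smaller or larger amounts. Hsd17b7 had the lowest fitted value of the list (log2 fold change -0.77). Mvd, the last enzyme before the isoprenoid units, had a mean of 16.7 ± 2.38 CPM at D20 (SD, n = 6 here and below) and 10.5 ± 3.27 at D22. Cyp51, the lanosterol demethylase, had means of 108 ± 10.1 and 81.1 ± 13.0 CPM, and Msmo1, the sterol methyl oxidase, 130 ± 11.1 and 96.3 ± 25.6. Nsdhl and Hsd17b7, which complete the removal of the methyl groups, had means of 24.9 ± 3.14 and 10.9 ± 2.28 CPM at D20 and of 17.2 ± 2.00 and 6.38 ± 1.5 at D22. Mvk, the mevalonate kinase, had the other sign (10.4 ± 2.63 and 10.8 ± 2.67 CPM), as did Pmvk, and Ebp, the sterol isomerase, had means of 24.4 and 24.5 CPM. Idi1, Fdps, Tm7sf2, Sc5d and Dhcr7 had log2 fold changes between -0.48 and -0.03. Leaving out D22 organoid 6 made Msmo1 a call (-0.59, adjusted p = 0.00482).

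From D22 to D25 the fitted value was positive for 16 of 17 sterol synthesis genes (median 0.29, annotated genes 0.10), none was called by edgeR or DESeq2, and 7 of 17 had an unadjusted edgeR p below 0.05. These D25 values rested in large part on D25 organoid 1. Without it 14 of 17 were positive with a median of 0.15, and Hmgcs1 went from 0.74 to 0.37, Fdft1 from 0.45 to 0.26, Sqle from 0.40 to 0.21 and Sc5d from 0.31 to 0.15. The other 5 organoids of D25 had means near those of D22 in Cyp51 (76.6 ± 4.62 CPM), Msmo1 (98.9 ± 8.50) and Idi1 (22.4 ± 4.36, against 31.6 at D20 and 22.7 at D22), and a mean between those of D20 and D22 in Hmgcs1 (368 ± 116). Hmgcs1 was at 264, 353 and 999.5 CPM at D25 and at 155, 575 and 740 at D30, ranges that hold the whole D20 range. Fdft1 had means of 83.0 ± 25.3 CPM at D25 and 86.1 ± 26.9 at D30, against 90.7 ± 7.52 at D20. The D25 mean was 73.2 ± 8.99 without D25 organoid 1 and the D30 mean 94.5 ± 19.48 without D30 organoid 6 (n = 5). From D20 to D30, 7 of the 17 fitted values were positive and the median was -0.07. Without D30 organoid 6, 10 were positive and the median was 0.07. Mvd and Cyp51 missed the threshold over the course, and each was called lower without 1 organoid, Mvd without D30 organoid 4 (-0.80, adjusted p = 0.00556) and Cyp51 without D30 organoid 1 (-0.58, adjusted p = 0.00461).

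Lss, Pmvk and Ebp were the sterol synthesis genes that changed over the whole course. Lss, the synthase that closes the sterol ring system, was read at 98.4, 106 and 127 CPM at D20, at 63.8, 75.5 and 98.3 at D22, at 56.6, 68.9 and 98.4 at D25 and at 40.4, 59.0 and 74.9 at D30. It fell by 0.93 on the log2 scale (SE 0.14, 1.901-fold lower at D30, adjusted p = 2.31e-06), and D20 and D30 did not overlap. Pmvk, the kinase that follows Mvk in the pathway, lay at 24.5, 28.2 and 29.1 CPM at D20, at 29.5, 32.5 and 48.0 at D25 and at 45.0, 60.9 and 79.5 at D30. It rose 2.205-fold (log2 fold change 1.14, SE 0.13, adjusted p = 4.91e-08), mostly from D25 to D30 (0.76, SE 0.13, adjusted p = 0.000282). Neighbours in the mevalonate branch thus parted, since Mvk had a mean of 11.04 ± 2.95 CPM at D30 against 10.4 at D20, and Mvd 10.98 ± 4.28 against 16.7. Ebp went from 24.4 ± 2.98 to 33.5 ± 5.47 CPM (log2 fold change 0.45, SE 0.13, adjusted p = 0.00735), a call lost without any 1 of 7 organoids (D20 organoids 1, 3, 4 and 5 and D30 organoids 4, 5 and 6; adjusted p 0.0119 to 0.0264). When only annotated genes were fitted, Mvd and Cyp51 were also called lower and Ebp was lost, so that 10 members were higher and 6 lower from D20 to D30.

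The stretch of DNA before the start of these genes was read from the RefSeq promoter table (build GRCm38.p6), which held 28 of the 35 members and not Fdps, Fdft1, Sqle, Scd1, Scd2, Fads1 or Lpl. In the 250 bases before each start, 4 words were searched on both strands: CCAAT, the core bound by NF-Y, a partner of the SREBPs, the sterol regulatory word TCACNCCAC, the E-box CACGTG, and TAATCC, a core bound by the photoreceptor factor CRX. CCAAT was found in all 14 sterol synthesis genes with a promoter and in Srebf1, Srebf2 and Insig1, in 21 of 28 members in all (75.0%), and in 37.5% of the 27025 genes in the table (33.8% of 32851 promoters). Of the elongases only Elovl1 and Elovl5 had it among 6. The word TCACNCCAC was found in Hmgcs1 alone among the members and in 1.22% of genes (1.05% of promoters). CACGTG was found in 6 of the 28 members (Abca1, Dhcr7, Elovl5, Hsd17b7, Insig1 and Sc5d, 21.4%) and in 6.86% of genes (6.02% of promoters). TAATCC was found in Mvk alone and in 7.21% of genes (6.25% of promoters). The words do not overlap each other in the promoters shown. These letters are a description of the windows, not of binding. Shown, so that windows with and without these words can be read side by side, are 3 sterol enzymes that ran lower at D22, the regulator Insig1, and 2 genes that rose from D20 to D22, each 5′ to 3′ on the gene's own strand with the 4 searched words in capitals (ATTGG is CCAAT on the other strand):
Hmgcs1 chr13:119690101-119690350 (+): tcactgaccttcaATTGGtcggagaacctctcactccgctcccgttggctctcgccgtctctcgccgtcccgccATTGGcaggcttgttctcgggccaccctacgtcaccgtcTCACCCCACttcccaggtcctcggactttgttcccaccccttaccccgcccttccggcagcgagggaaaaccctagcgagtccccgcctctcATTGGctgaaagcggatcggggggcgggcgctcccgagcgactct
Lss chr10:76531355-76531604 (+): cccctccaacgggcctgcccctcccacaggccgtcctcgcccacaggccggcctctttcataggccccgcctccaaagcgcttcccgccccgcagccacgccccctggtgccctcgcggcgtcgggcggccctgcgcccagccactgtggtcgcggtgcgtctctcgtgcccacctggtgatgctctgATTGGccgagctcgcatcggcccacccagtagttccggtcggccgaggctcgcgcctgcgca
Msmo1 chr8:64733579-64733828 (-): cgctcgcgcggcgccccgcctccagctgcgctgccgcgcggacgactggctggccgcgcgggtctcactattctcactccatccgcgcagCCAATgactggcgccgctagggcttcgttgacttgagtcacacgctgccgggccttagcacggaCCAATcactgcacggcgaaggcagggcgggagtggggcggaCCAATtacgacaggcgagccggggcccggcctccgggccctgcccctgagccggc
Insig1 chr5:28071162-28071411 (+): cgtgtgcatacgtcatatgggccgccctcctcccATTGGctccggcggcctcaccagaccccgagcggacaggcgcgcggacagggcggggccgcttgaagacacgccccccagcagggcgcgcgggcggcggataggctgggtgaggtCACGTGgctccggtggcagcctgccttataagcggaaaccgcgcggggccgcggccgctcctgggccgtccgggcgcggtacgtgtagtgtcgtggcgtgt
Elovl4 chr9:83806306-83806555 (-): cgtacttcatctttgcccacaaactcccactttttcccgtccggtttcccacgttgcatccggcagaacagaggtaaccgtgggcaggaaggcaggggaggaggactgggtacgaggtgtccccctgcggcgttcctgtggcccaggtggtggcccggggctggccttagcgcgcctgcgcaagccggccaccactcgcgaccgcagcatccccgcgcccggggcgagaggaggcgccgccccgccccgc
Abca1 chr4:53159896-53160145 (-): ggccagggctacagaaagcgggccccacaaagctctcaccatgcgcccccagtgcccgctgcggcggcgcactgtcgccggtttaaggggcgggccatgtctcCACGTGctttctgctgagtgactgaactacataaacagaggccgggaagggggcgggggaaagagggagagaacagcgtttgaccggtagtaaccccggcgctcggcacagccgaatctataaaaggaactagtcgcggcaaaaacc
Hmgcs1 had 3 CCAAT words, 237, 176 and 45 bases before the start, with the sterol regulatory word between them at 137. Msmo1 also had 3, at 160, 96 and 55 bases, Lss had 1 at 62, and Insig1 had 1 at 216 with an E-box at 101. Elovl4 had none of the 4 words, and Abca1 had an E-box at 147 bases. The genes shown were picked for their direction, with fitted values from D20 to D22 between -0.58 and -0.44 for the 4 that hold CCAAT, and they do not stand for a link between CCAAT and direction. Among holders of CCAAT, Acsl6 rose in that step and Srebf1 (0.18), Pmvk (0.09) and Mvk (0.05) had positive values. Among the members without it, Elovl7 (-0.56), Fads2 (-0.28) and Elovl6 (-0.25) had negative ones.

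The sterol regulators moved apart over the course. Srebf2, the main activator of sterol synthesis genes, was read at 64.1, 81.4 and 101.3 CPM at D20, at 57.1, 63.1 and 72.0 at D22, at 41.3, 46.4 and 58.1 at D25 and at 23.2, 39.8 and 50.2 at D30. It fell 2.14-fold (log2 fold change -1.09, SE 0.16, adjusted p = 1.83e-06), with D30 wholly below D20 and no single step called. Insig1, which retains the SREBP complex and is itself an SREBP target, went from 50.5 ± 4.56 CPM at D20 to 36.0 ± 11.3, 27.6 ± 5.55 and 29.2 ± 6.84, a fall of 1.73-fold by D30 (-0.79, SE 0.17, adjusted p = 0.000338). All 6 D30 organoids (20.1 to 36.8 CPM) lay below all 6 at D20 (43.9 to 56.6). Srebf1, whose SREBP-1c form drives fatty acid genes, went the other way, from 29.6, 31.99 and 40.9 CPM at D20 to 50.8, 55.1 and 76.4 at D25 and 41.7, 47.0 and 55.9 at D30. It rose by 0.62 on the log2 scale from D22 to D25 (SE 0.14, adjusted p = 0.00303) and by 0.54 over the course (SE 0.14, adjusted p = 0.00248). The D25 step was lost without D22 organoid 1, 4, 5 or 6 or D25 organoid 5 (adjusted p 0.0103 to 0.0122).

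**Figure D2:**
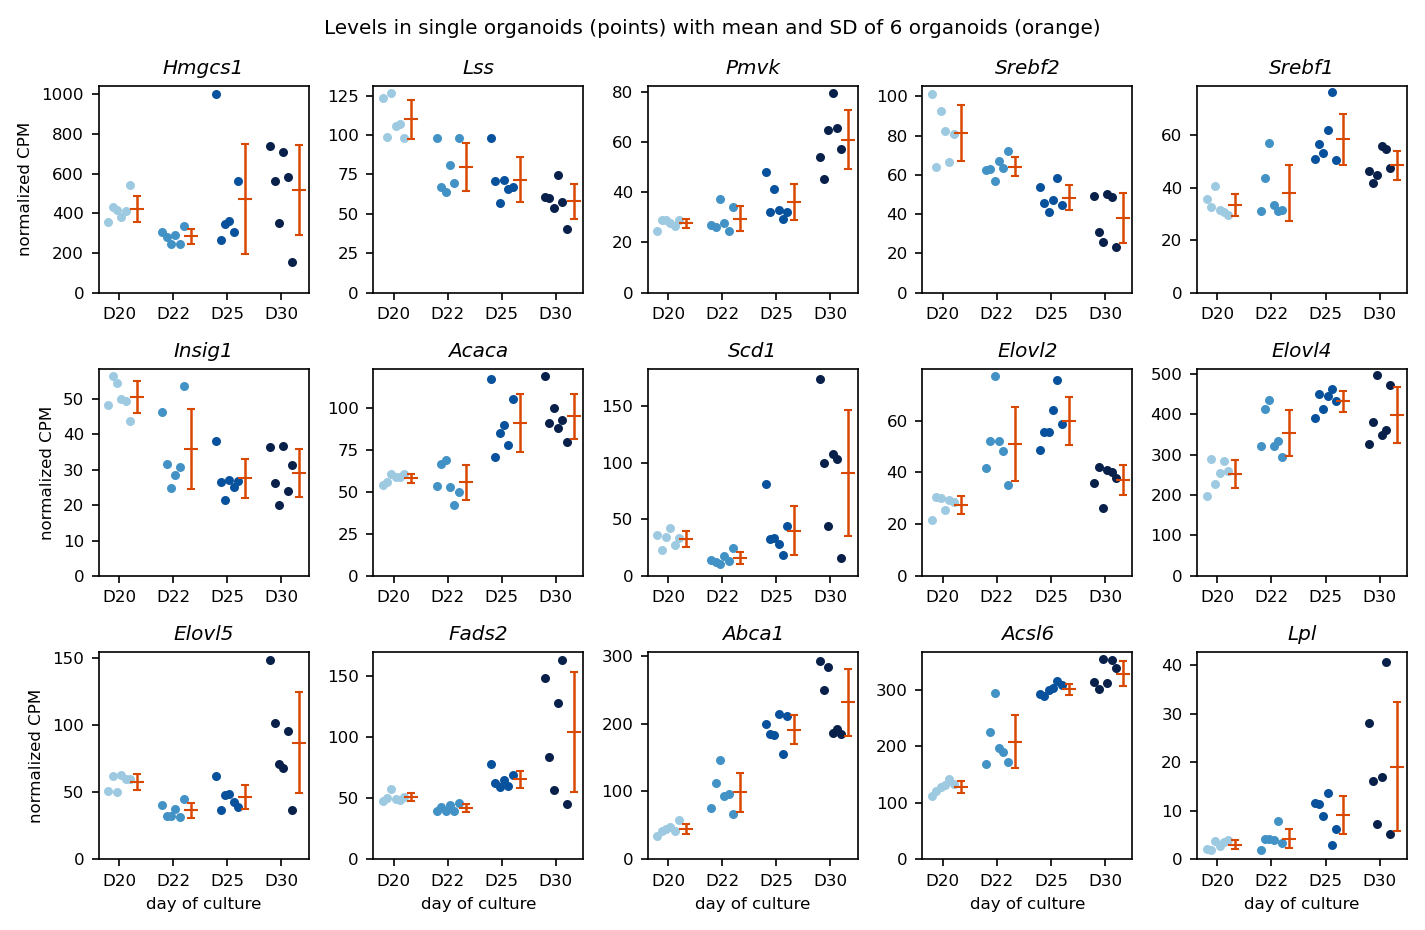
Normalized CPM of 15 genes in single organoids (points) at each day of culture, with the mean and SD of 6 organoids in orange; every vertical axis starts at 0 and differs between genes. Abca1 and Acsl6 climb from D20 to D25 with little overlap, Srebf2 and Lss descend, and Hmgcs1, Scd1, Elovl5 and Fads2 spread widely at D30.

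The fatty acid synthesis genes rose in part, and later than D22. Acaca, the carboxylase that makes malonyl-CoA, lay at 54.1, 59.1 and 61.1 CPM at D20, at 42.2, 53.1 and 69.3 at D22, at 71.2, 87.8 and 118 at D25 and at 80.1, 92.0 and 120 at D30. It rose 1.64-fold from D22 to D25 (log2 fold change 0.71, SE 0.12, adjusted p = 0.000237), and the organoids of these days did not overlap. Fasn, the synthase itself, had means of 114 ± 11.05, 93.1 ± 11.7, 127 ± 23.3 and 116 ± 27.5 CPM and was not called in any comparison (D25 against D22: 0.44, SE 0.13, adjusted p = 0.0259). The carboxylase and the synthase, consecutive in the pathway, thus ended 1.63-fold higher and at a ratio of 1.02 to D20.

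Scd1, a desaturase that makes oleic and palmitoleic acid, had the widest swing of the 4 fatty acid synthesis genes. It was read at 22.9, 34.1 and 42.6 CPM at D20, at 10.3, 13.604 and 25.1 at D22, at 18.9, 33.2 and 81.3 at D25 and at 15.5, 101.4 and 174.6 at D30. The rise over the whole course was called (2.77-fold, log2 fold change 1.47, SE 0.35, adjusted p = 0.00114), although the lowest D30 organoid lay below all those of D20. The step from D22 to D25 missed the threshold (1.36, SE 0.35, adjusted p = 0.0104) and was called by DESeq2 and without any 1 of 5 organoids (D22 organoid 6, D25 organoid 5 and D30 organoids 1, 3 and 6). Scd2, the brain form of the enzyme and a close paralog, had means of 639 ± 46.6, 582 ± 64.6, 723 ± 126 and 855 ± 335 CPM and was not called (D30 against D20: 0.42, SE 0.16, adjusted p = 0.0421). Without D30 organoid 1 that value was 0.22 (adjusted p = 0.233), and without D30 organoid 6 it was 0.57 and called (adjusted p = 0.00079). Reads aligning equally well to more than 1 place were not counted to a gene in the deposited tables.

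The 6 elongases followed different courses. Elovl2, which lengthens the longer polyunsaturated chains on the way to docosahexaenoic acid, was highest at D22 and D25: 21.4, 28.8 and 30.4 CPM at D20, 34.99, 50.1 and 77.1 at D22, 48.6, 57.1 and 75.7 at D25 and 26.2, 39.0 and 42.1 at D30. Its first step was a rise of 0.89 in log2 units (SE 0.15, adjusted p = 0.00034) and by D30 it fell by 0.69 from D25 (SE 0.15, adjusted p = 0.00268; 0.012 without D25 organoid 5), with no overlap in either step. Over the whole course its value was 0.44 (adjusted p = 0.0196), which was called by DESeq2, with DESeq2 size factors in edgeR, and without D22 organoid 3 (adjusted p = 0.00765) or D30 organoid 3 (0.52, adjusted p = 0.0058). Elovl4, which makes the very long chain fatty acids of photoreceptors and is mutated in a dominant macular dystrophy, lay at 197, 258 and 290 CPM at D20, at 295, 328 and 437 at D22, at 391, 440 and 462 at D25 and at 328, 371 and 497 at D30. Its D22 organoids all lay above its D20 organoids (log2 fold change 0.49, SE 0.11, adjusted p = 0.00701), and it was 1.58-fold higher at D30 (0.66, SE 0.11, adjusted p = 1.55e-05). The first step was lost without any 1 of 9 organoids (D20 organoids 1, 3, 4 and 6, D22 organoids 2 to 5 and D25 organoid 3; adjusted p 0.0101 to 0.0322), and the whole course was not.

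Elovl5, which lengthens the shorter polyunsaturated chains, first ran lower and then higher. It was read at 49.7, 60.0 and 62.4 CPM at D20, at 31.6, 34.8 and 45.0 at D22, at 36.7, 45.1 and 61.8 at D25 and at 36.9, 83.0 and 148 at D30. The step from D25 to D30 was called (1.88-fold, log2 fold change 0.91, SE 0.19, adjusted p = 0.00222), but not without D30 organoid 1 (0.69, adjusted p = 0.0104) or in a fit of D25 and D30 alone (0.92, adjusted p = 0.0216). From D20 to D30 its value was 0.60 (adjusted p = 0.0135), 0.38 without D30 organoid 1 (adjusted p = 0.0849), and called without D30 organoid 4 (adjusted p = 0.00981) or 6 (0.75, adjusted p = 0.000252). Elovl7, another elongase of saturated chains, had low means of 1.73 ± 0.43, 1.18 ± 0.52, 2.36 ± 0.83 and 6.65 ± 1.79 CPM. It rose 3.82-fold over the course (1.93, SE 0.29, adjusted p = 3.32e-06) with most of it from D25 to D30 (1.49, SE 0.28, adjusted p = 0.000803), where the days did not overlap. Elovl6, which takes palmitate to stearate, fell from 93.2 ± 11.7 CPM at D20 to 59.9 ± 8.77 at D30 (-0.64, SE 0.11, adjusted p = 2.67e-05), again without overlap. Elovl1, an elongase of saturated very long chains, had means of 2.26 to 4.08 CPM and was not called.

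The front-end desaturases Fads2 and Fads1, which insert the delta-6 and delta-5 double bonds of polyunsaturated fatty acids and are coded side by side on chromosome 19, had narrow ranges at D20 and wide ones at D30. Fads2 was read at 47.9, 49.9 and 57.5 CPM at D20, at 39.2, 41.2 and 45.8 at D22, at 58.8, 63.6 and 78.0 at D25 and at 44.9, 106 and 163 at D30. It rose 2.05-fold from D20 to D30 (log2 fold change 1.04, SE 0.19, adjusted p = 7.78e-05), with 1 D30 organoid below the D20 range. Fads1 had means of 66.0 ± 9.75, 48.8 ± 6.92, 53.5 ± 7.99 and 76.3 ± 35.1 CPM and was not called (0.21, SE 0.21, adjusted p = 0.456). That value was -0.00049 without D30 organoid 1 (adjusted p = 0.999) and 0.39 without D30 organoid 6 (adjusted p = 0.0539).

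All 3 genes for moving and activating lipid rose. Abca1, the transporter that loads cholesterol and phospholipid onto apolipoproteins and is switched on by oxysterol-bound LXR, was read at 34.6, 42.8 and 57.9 CPM at D20, at 65.9, 94.6 and 147 at D22, at 155, 192 and 214 at D25 and at 185, 220 and 292 at D30. The first 3 days did not overlap at all. It rose 2.21-fold to D22 (log2 fold change 1.14, SE 0.16, adjusted p = 3.69e-05), 1.94-fold to D25 (0.96, SE 0.15, adjusted p = 0.00012) and 5.20-fold over the course (2.38, SE 0.16, adjusted p = 5.93e-13). Acsl6, the acyl-CoA synthetase that favours docosahexaenoic acid in brain and retina, lay at 112, 130 and 142 CPM at D20, at 169, 194 and 295 at D22, at 290, 302 and 316 at D25 and at 301, 327 and 354 at D30. It rose 1.63-fold to D22 (0.70, SE 0.10, adjusted p = 6.04e-05), 1.45-fold to D25 (0.53, SE 0.10, adjusted p = 0.000564) and 2.57-fold over the course (1.36, SE 0.10, adjusted p = 4.22e-12). Its 6 organoids at D25 lay close together (SD 9.77 CPM, a coefficient of variation of 3.24%), the narrowest spread of any member on any day. Lpl, the lipase that frees fatty acids from lipoprotein triglyceride, went from 1.88, 3.10 and 3.97 CPM at D20 to 5.27, 16.5 and 40.7 at D30 (6.39-fold, 2.68, SE 0.40, adjusted p = 3.48e-06), rising with no step called. The adipocyte markers Adipoq, Plin1 and Cidec, whose tissue is the classical source of Lpl, reached at most 0.23 CPM in any organoid.

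Some organoids stood apart in the sterol and fatty acid genes as a block. D25 organoid 1 had the highest level of its day in 16 of the 17 sterol synthesis genes, and its summed sterol synthesis level was 1865 CPM against 786 to 1180 in the other D25 organoids. D30 organoid 6 had the lowest level of its day in 15 of the 17, with a sum of 570 CPM against 907 to 1491 in the others, and it was lowest in all 6 of Acaca, Fasn, Scd1, Scd2, Fads1 and Fads2. D30 organoid 1 had the highest level of 5 of these 6 genes. At D22, organoid 6 had the highest level in 9 of 17 sterol synthesis genes. D25 organoid 1 had 17528776 reads on features (others of its day 14524620 to 18078956). D30 organoid 6 had 17444816 (others of its day 15814895 to 19477108). The part of depth in their levels was not tested. D30 organoid 6 had the lowest Müller glia sum of its day (809 CPM, others 1362 to 2595) and the highest photoreceptor sum (6378 CPM). It also had the lowest oligodendrocyte and cortical neuron sums of its day (51.6 and 5.49 CPM), the highest endothelial sum (209 CPM) and the second highest pigment epithelium sum (2520 CPM). D30 organoid 1 had the highest Müller glia sum (2595 CPM) and the lowest photoreceptor sum (3672 CPM). D25 organoid 1 had a Müller glia sum of 733 CPM within the range of its day (665 to 877), and the highest sum of 4 cortical neuron markers (285 CPM, others 3.77 to 159). Its photoreceptor sum was the lowest of its day (4093 CPM, others 4690 to 5026), as were its pigment epithelium sum (77.6 CPM, others 311 to 664) and its endothelial sum (166 CPM, others 212 to 243), and its oligodendrocyte sum was the highest (60.6 CPM, others 31.7 to 49.6). The part of these cell types in the organoids' sterol levels was not tested.

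**Figure D3:**
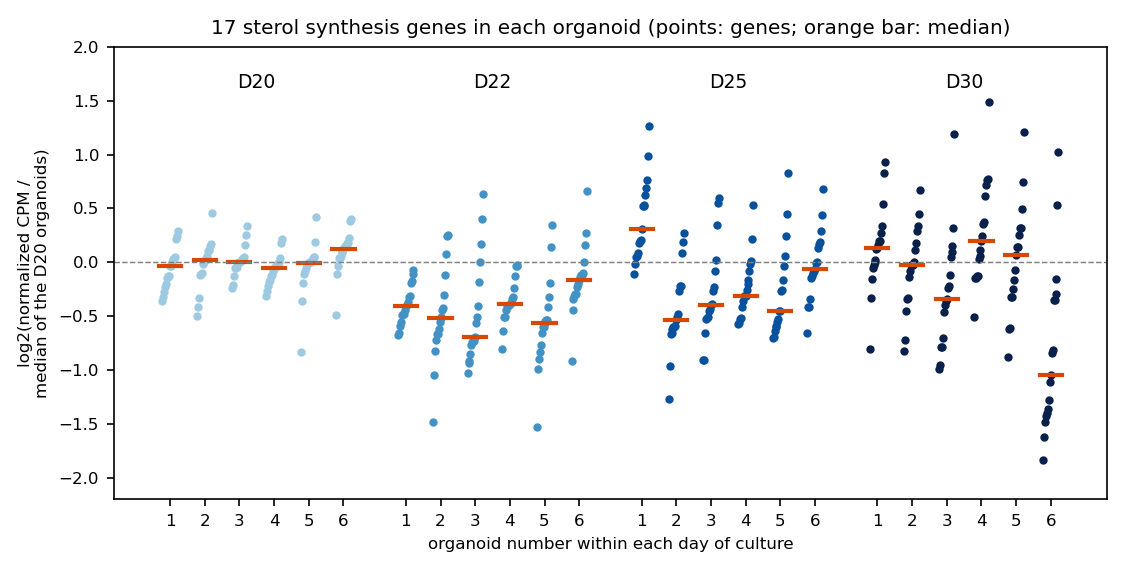
Each point is 1 of 17 sterol synthesis genes in 1 organoid, as the log2 ratio of its normalized CPM to the median of the 6 D20 organoids; orange bars are medians over the genes of an organoid. The medians of the 6 D22 organoids sit below the dashed line at 0, D25 organoid 1 is raised as a whole, and D30 organoid 6 lies furthest down, apart from a few genes.

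The spread of the sterol synthesis genes between organoids was wider at D25 and D30 than at D20, and less so with 1 extreme organoid of each day left out. The median coefficient of variation of the 17 sterol synthesis genes was 12.6%, 18.5%, 26.6% and 27.4% on the 4 days in order, beside 19.1%, 21.2%, 17.8% and 21.8% for annotated genes tested. Without D25 organoid 1 the D25 value was 13.9% (annotated genes 16.4%). Without D30 organoid 6 the D30 value was 20.2% (annotated genes 20.5%), still above the 12.6% of D20. These organoids were picked as extremes in these same genes, so a smaller value without them was fixed in advance. No organoid was left out at D20 or D22, so these values are not like for like with those days or with annotated genes. The elongases stood at 13.3%, 22.1%, 17.8% and 21.1% in day order. For the 4 fatty acid synthesis genes the value was 8.51% at D20 and 31.4% at D30 (22.8% without D30 organoid 6). These are descriptions over few genes that share their organoids, and no test was made of them.

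**Figure D4:**
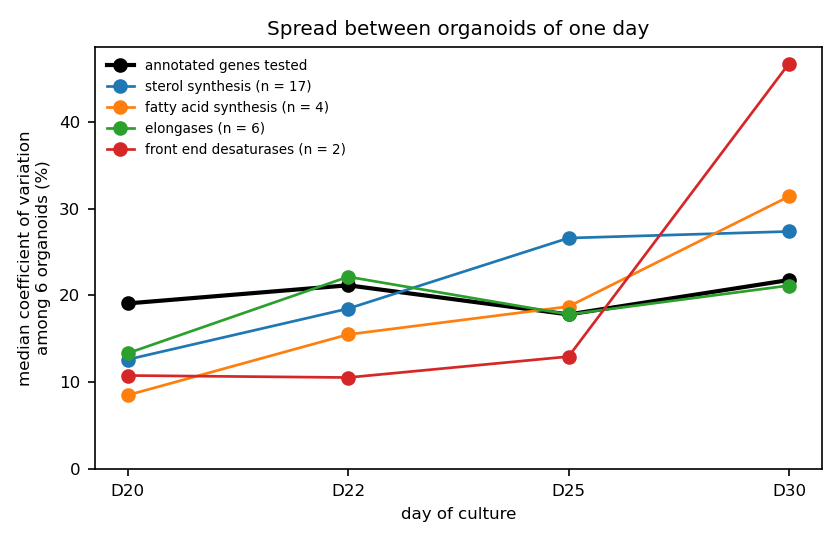
Median coefficient of variation (SD over mean, in percent) among the 6 organoids of each day, for 4 sets of members and for all annotated genes tested (black). The sterol synthesis line goes from 12.6% to 27.4% while the black line lies between 17.8% and 21.8%; without D25 organoid 1 and D30 organoid 6 its last points would be 13.9% and 20.2%.

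With both of these organoids left out, a fit chosen after the data were seen and on the levels of these same genes, 28 members were called in the joint test instead of 17, beside 44.5% of annotated genes. The 11 added genes were Hmgcs1, Fdft1, Sqle, Cyp51, Msmo1, Nsdhl, Hsd17b7, Sc5d, Fasn, Scd2 and Fads1. From D20 to D22, Fdft1 (adjusted p = 0.00445), Sqle (0.00805), Scd1 (0.00513) and Elovl5 (0.00456) were then called lower, and Hmgcs1 was not (0.0217), beside 3.88% of annotated genes called. From D25 to D30, Hmgcs1 (log2 fold change 0.68, adjusted p = 0.00734), Scd1 (1.74, 2.28e-05), Fads1 (0.76, 0.0023) and Fads2 (0.89, 0.000526) were then called higher, beside 10.1% of annotated genes called instead of 7.38%. Without D30 organoid 6 alone, the joint test called 23 members (44.7% of annotated genes), the D22 to D25 step 7 (Fasn, Scd1 and Fads2 added, 12% of annotated genes) and the D25 to D30 step 7 (Scd1, Fads1 and Fads2 added, 8.58%). From D20 to D30 Ebp was lost and Scd2 and Elovl5 were added, so that 16 members were called instead of 15.

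Other genes of lipid metabolism were listed beside the members: 69 were listed and 65 passed the filter. From D20 to D30, 29 of the 65 were called (23 higher, 6 lower), a share of 44.6% beside 41.8% of annotated genes, with a median log2 fold change of 0.30. Of 8 fatty acid oxidation genes tested 7 rose and none fell, the largest rise being that of Cpt1a, the gatekeeper of fatty acid entry into mitochondria, from 9.07 ± 2.36 to 57.8 ± 6.85 CPM (log2 fold change 2.67, SE 0.23, adjusted p = 1.14e-10). Acadl, the long chain acyl-CoA dehydrogenase, rose from 2.61 ± 0.69 to 9.33 ± 3.36 CPM (1.84, SE 0.30, adjusted p = 1.4e-05). Of 11 genes of sterol handling 5 rose and 3 fell. Apoe, the apolipoprotein that takes up the cholesterol exported by ABCA1, rose from 145, 164 and 202 CPM at D20 to 484, 1119 and 1924 at D30 (2.76, SE 0.21, adjusted p = 7.8e-12), and Lcat, which esterifies that cholesterol, was at 0 to 0.73 CPM at D20, near the worth of 3 reads, and at 0.998 to 11.7 at D30 (adjusted p = 2.56e-06). Scap, the escort of the SREBPs, was the only 1 of 6 other sterol sensing genes called and rose from 22.7 ± 3.62 to 55.4 ± 11.8 CPM (1.29, SE 0.17, adjusted p = 5.32e-07); it was singled out after its values were seen. The largest falls were those of Plin2, a lipid droplet coat (29.0 ± 4.79 to 9.71 ± 3.41 CPM, -1.58), Acsl3, an acyl-CoA synthetase of droplets and endoplasmic reticulum (1084 ± 115 to 435 ± 39.4 CPM, -1.32), Fabp7, the fatty acid binding protein of neural progenitors and glia (808 ± 119 to 370 ± 174 CPM, -1.13), and Npc2, the lysosomal cholesterol carrier (76.5 ± 9.06 to 39.1 ± 11.8 CPM, -0.97), with edgeR adjusted p from 3.55e-12 to 7.04e-05. Of 3 other sterol synthesis genes tested 0 were called by edgeR or DESeq2, with 1 at an unadjusted edgeR p below 0.05. Of 14 other fatty acid synthesis genes 3 rose (Hacd1, Hacd3 and Fads3), and of 23 genes of activation, uptake and phospholipid synthesis 7 rose and 3 fell.

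**Figure D5:**
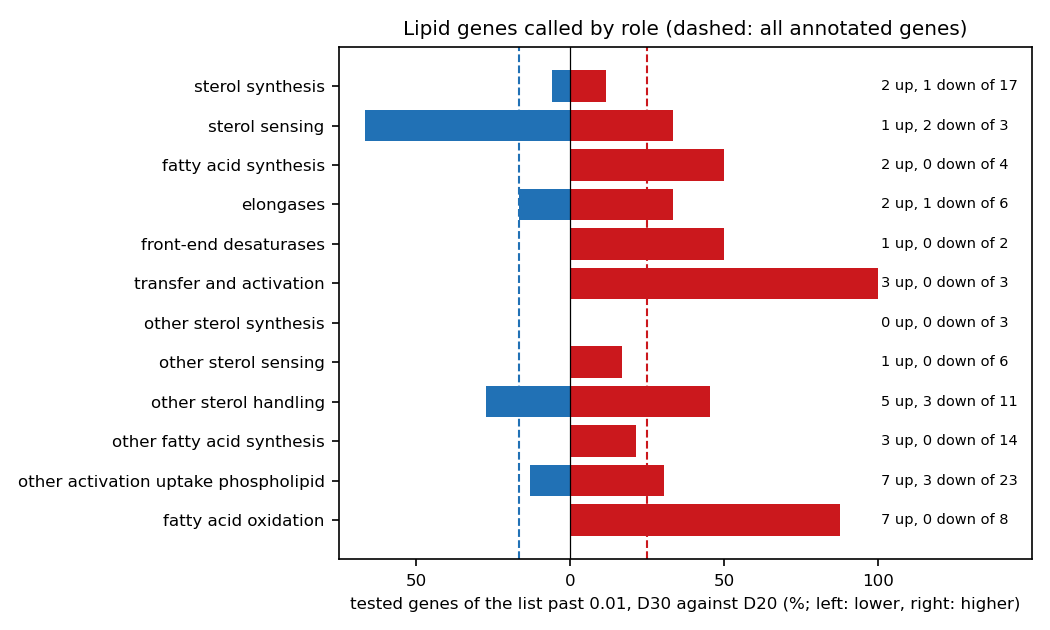
Share of the tested genes of each role called between D20 and D30, higher in red to the right and lower in blue to the left, with counts at the right; the first 6 rows are the 35 members and the others are further lipid genes. Dashed lines mark the shares of annotated genes called higher (25.1%) and lower (16.7%); fatty acid oxidation and transfer and activation reach furthest past the red line, and sterol synthesis stays short of both lines.

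Several members overlap other genes in the annotation, and the strand setting of the counting is not given in the sources used here. On the opposite strand 9 members overlap another gene (Mvd, Fdft1, Lss, Cyp51, Srebf1, Acaca, Elovl1, Elovl6 and Acsl6), and on the same strand 8 do. The counting set aside 139485 to 187398 reads per organoid as ambiguous between features, so members may lose reads in shared stretches. Use of strand would keep opposite partners apart, but not those on the same strand. How many reads each member lost is not known. Elovl1 overlaps the cell cycle gene Cdc20 on the opposite strand. Abca1, Hmgcs1, Pmvk, Scd1, Elovl2, Elovl4, Elovl5, Elovl7, Fads2, Insig1 and Lpl overlap no other annotated gene.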

How the data were processed

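The deposited values were whole-number counts of reads per feature, without normalization, in 24 tables of 126602 features. As given in the study's methods and processing notes, the authors trimmed single-end reads from rRNA-depleted, strand-specific libraries with cutadapt 1.5, aligned them to GRCm38/mm10 with HISAT2, assembled new transcripts with StringTie 1.3.3 and counted with HTSeq 0.6.1. Multiply aligned reads were left out by that counting, so close paralogs lose reads. Summary lines were left out of library sizes.

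The counts were fitted with edgeR 4.0.16 (quasi-likelihood, TMM, R 4.3.3), all 24 organoids in 1 fit, on the 46949 features (16253 annotated) with a base mean of at least 10; the threshold of 0.01 followed the study, which used DESeq2. The fit was tested on simulated counts with 2-fold and 4-fold changes set at D30 in well counted features. From D20 to D30 edgeR called 69 of 100 features changed 2-fold and 99 of 100 changed 4-fold, with 1 unchanged feature called. Changes smaller than 2-fold were not simulated. DESeq2 1.42.0, its size factors, other filters, a replicate block, fits of the compared timepoints and omissions of organoids were alternatives. Exon length came from GENCODE M21 as the union of exons. No 2 organoids of a day agreed within sampling noise (lowest chi-square per degree of freedom 6.00). The members and lists were chosen with earlier results of these data known. Values were given for members called in any comparison, for others by value or range, and for the 4 largest rises and 4 largest falls of the other lipid genes.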

Additional observations from a re-analysis of the deposited data

Results flagged for a closer look

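Of 140 groups of 6 organoids (35 genes at 4 days), 14 held an organoid whose gap to its nearest neighbour was too large a share of the group's range by Dixon's test at the 95% level, where chance would give about 7 (1 in 20). D25 organoid 1 accounted for 6 of them, each time as the highest of its day: Fdft1 at 132 CPM (others 63.5 to 86.8), Sqle at 80.1 (37.9 to 47.5), Lss at 98.4 (56.6 to 71.5), Cyp51 at 125 (70.2 to 83.0), Insig1 at 38.1 (21.6 to 27.2) and Scd2 at 966 (624.6 to 724). D22 organoid 6 was the highest of its day in Msmo1 at 145 CPM (72.7 to 97.2) and in Fads1 at 62.3 (44.2 to 49.8). At D20, Sqle was at 63.7 CPM in organoid 1 (49.0 to 53.3), Fads2 at 57.5 in organoid 3 (47.9 to 51.3) and Hsd17b7 at 6.40 in organoid 5 (11.01 to 12.7). At D30, Tm7sf2 was at 14.8 CPM in organoid 4 (7.82 to 9.99) and Elovl1 at 5.35 in organoid 5 (3.05 to 3.71). Elovl1 was also at 0.791 CPM in D22 organoid 5 (2.33 to 2.80). The gene and day groups share their organoids, so the counts are not independent of each other.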

How the results depend on the processing

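The 27 calls of members in the 4 comparisons gave 864 values under the alternatives, of which 836 kept direction and threshold, 28 kept direction only and 0 reversed; 22 calls passed in every alternative run. From D20 to D22 the count of members called was 9 instead of 4 when only those timepoints were fitted. With D25 organoid 1 and D30 organoid 6 left out together, an alternative added after seeing the data, the counts were 8 from D20 to D22, 8 instead of 4 from D25 to D30 and 28 instead of 17 in the joint test. Leaving out 1 organoid at a time gave 3 to 5 calls from D20 to D22, 3 to 7 from D22 to D25, 3 to 7 from D25 to D30, 14 to 16 from D20 to D30 and 16 to 23 in the joint test. The 7, 7 and 23 were all without D30 organoid 6.

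The labels do not say whether the replicate numbers pair the organoids. Deviations of same-numbered organoids correlated at -0.083 to 0.214, and those of other numbers at -0.285 to 0.195. Of the 36 same-numbered pairs 1 was over 0.1, and 8 of 24 organoids correlated best with their own number. No test of these correlations was made, so they do not decide whether the numbers pair organoids. With the replicate number as a block, 4, 4, 4, 15 and 17 members were called, as without it. Depth limits Elovl7, Elovl1 and Lpl most, with as few as 10, 11 and 28 reads in an organoid.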

Other observations

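At D22, organoids 3 and 6 lay at opposite ends in some members and not in others. Organoid 3 had the highest Abca1 (147 CPM) and Elovl2 (77.1 CPM) of its day with the lowest Hmgcs1 (243 CPM), Lss (63.8 CPM), Scd1 (10.3 CPM) and Insig1 (25.0 CPM). Organoid 6 had the lowest Abca1 (65.9 CPM) and Elovl2 (34.99 CPM) with the highest Hmgcs1 (338 CPM), Fdft1 (74.1 CPM), Scd1 (25.1 CPM) and Insig1 (53.6 CPM). Other members went otherwise: the lowest Fdft1 was in organoid 5 (46.3 CPM, 48.6 in organoid 3), the highest Lss in organoid 1 (98.26 CPM, 97.8 in organoid 6), the lowest Acsl6 in organoid 1 (169 CPM, 171 in organoid 6) and the highest Fdps in organoid 3 (17.1 CPM). Of the 17 sterol synthesis genes, organoid 3 was lowest in 5 and highest in 3, and organoid 6 highest in 9 and lowest in 0. Their sums of 9 photoreceptor markers were the highest and the lowest of the day, 4357 and 2000 CPM, where D20 organoids had 1072 to 1678 and D25 organoids 4093 to 5026. These are 2 organoids picked from 6 after their values were seen, and no test was made.

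At D30, organoid 6 was the lowest of its day in all sterol synthesis genes but 2. Ebp was at 35.5 CPM there (others 27.8 to 41.2), above the median of the day, and Pmvk was at 57.3 CPM (45.0 to 79.5), while Hmgcs1 was at 155 CPM against 351 to 740 in the others.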
